A study of Mus musculus with 18 samples.

Results

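Dazl, Dppa3, Pou5f1, Nanos3, Sall4, Lin28a and Stra8 are regulators of germ cell identity and of the pluripotent state that germ cells share with the early embryo. These 7 genes were chosen by name from the 30172 genes of the expression tables, and all 7 were found, so each is described here in the F1 ovary across 3 ages and both maternal diets. RNA of whole ovaries of wild-type C57BL/6J females on postnatal day 3, 7 or 21 (written Pd3, Pd7 and Pd21) was sequenced as poly-A libraries, with 3 libraries in each of 6 groups and 18 in all. The F1-HHcy ovaries came from daughters of dams made hyperhomocysteinemic with a diet of 3% methionine by weight, given from 4 weeks before mating per the labels (a longer time per the paper's methods) and through gestation and lactation. The F1-Control ovaries came from daughters of dams on normal chow, and the fathers of all groups ate a normal diet. The pups were not treated themselves. RNA was taken from each ovary according to the study's design text, and the litters and pups behind the libraries are not given in the sources used here, so the p-values below measure the spread between libraries. Pd3 and Pd7 formed batch 1 and Pd21 formed batch 2, so each diet comparison lay within a batch, whereas age and batch cannot be told apart where Pd21 is set beside another day.

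The 7 genes act at successive steps of germ cell life. Nanos3, an RNA-binding protein, keeps primordial germ cells alive, and Pou5f1 (Oct4), Sall4 and Lin28a belong to the network that holds pluripotency and germ cell potential, Lin28a by blocking the maturation of let-7 microRNAs. Dazl binds and controls the translation of germ cell mRNAs and licenses fetal germ cells for sexual differentiation. Stra8 is switched on by retinoic acid when these cells enter meiosis. Dppa3 (Stella) is stored in oocytes and shields maternal DNA methylation in the early embryo, and it also binds Uhrf1. In the mouse ovary the germ cells have left the mitotic and early meiotic stages around birth, primordial follicles form in the first postnatal days, and part of them begin to grow at once.

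In GENCODE vM21 (GRCm38) all 7 are protein-coding genes. Dazl lies on the minus strand at chr17:50279395-50293636, Pou5f1 on the plus strand at chr17:35506018-35510772, Dppa3 on the plus strand at chr6:122626410-122630272 and Stra8 on the plus strand at chr6:34920163-34939344. Lin28a lies on the minus strand at chr4:134003330-134018841, Sall4 on the minus strand at chr2:168748332-168767943 and Nanos3 on the minus strand at chr8:84173731-84185217. Pou5f1, Sall4 and Lin28a each overlap 1 gene of the opposite strand (Gm19553, Gm14261 and Gm13061), and Nanos3 spans the microRNA genes Mir181c and Mir181d. The library kit marks strand but the counting setting is not stated. Of the overlapping partners Gm14261 stayed at or below 0.0831 FPKM (fragments scaled to gene length and to the total counted in the library) in all 18 libraries. Processed copies exist for Pou5f1 and for Dppa3 (Dppa3-ps), and how reads that fit a copy equally well were counted is not stated, so the levels of these 2 genes carry that uncertainty.

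RefSeq promoters were matched for Dazl, Pou5f1, Lin28a, Nanos3 and Stra8. Those of Dazl and Pou5f1 are shown, the genes that fell furthest in the F1-HHcy ovary at Pd3 and at Pd7 respectively. Each is given as the stretch upstream of the gene's span in GENCODE (GRCm38.p6, 5′ to 3′). In capitals are the letters AGGTCA, the core motif of retinoic acid and other nuclear receptors, and CANNTG, the E-box, both strands searched. The window of Stra8 lies within the gene's span in GENCODE, so only the 30 bases around each of its AGGTCA matches are given.
Dazl, chr17:50293637-50293870, minus strand: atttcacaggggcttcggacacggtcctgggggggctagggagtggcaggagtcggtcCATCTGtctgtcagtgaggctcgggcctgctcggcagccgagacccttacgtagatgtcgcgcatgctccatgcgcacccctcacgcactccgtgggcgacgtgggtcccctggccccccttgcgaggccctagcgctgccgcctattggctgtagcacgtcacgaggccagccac
Pou5f1, chr17:35505782-35506017, plus strand: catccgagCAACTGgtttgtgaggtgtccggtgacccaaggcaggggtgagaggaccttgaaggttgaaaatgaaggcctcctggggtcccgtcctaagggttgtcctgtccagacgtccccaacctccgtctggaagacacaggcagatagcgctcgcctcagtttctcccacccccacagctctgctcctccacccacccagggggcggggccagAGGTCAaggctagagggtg
Stra8, chr6:34920742-34920771, plus strand: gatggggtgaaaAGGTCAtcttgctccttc
Stra8, chr6:34920898-34920927, plus strand: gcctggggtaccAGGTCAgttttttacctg
In the 250 bases before the RefSeq start, Stra8 held AGGTCA at 2 places, Pou5f1 at 1 (its first start) and Dazl, Lin28a and Nanos3 held none, while 14.02% of 32851 mouse promoter windows of that length held at least 1. The letters CANNTG were found in 66.2% of all windows, at 1 place in Dazl and before the first start of Pou5f1, at 2 places before its second start and in Nanos3, and nowhere in the windows of Lin28a and Stra8. Dazl stood out for its CG dinucleotides, with 20 in the window against a median of 6 over all promoters, and 82.1% of promoters held fewer. A match of letters describes the sequence and is no evidence of binding.

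The 7 genes differed widely in level (per gene length, in FPKM). Dppa3 was the most abundant in every group, with means between 199 and 639 FPKM, and made up 73.4% to 91.7% of the summed level of the 7 genes in a library. Dazl and Pou5f1 followed with group means between 12.2 and 51.7 FPKM, Lin28a and Sall4 lay between 0.836 and 7.20 FPKM, Nanos3 stayed below 1 FPKM in its group means, and Stra8 was close to 0. The order was not the same in every group. Dazl exceeded Pou5f1 only in F1-Control at Pd3, where the ranges of the 2 genes overlapped, and Pou5f1 was above Dazl without overlap in F1-Control at Pd7 and in both diets at Pd21. Lin28a was above Sall4 without overlap in F1-Control at Pd3 and Pd7, whereas Sall4 was above Lin28a without overlap in F1-HHcy at Pd7 and in F1-Control at Pd21. In F1-HHcy at Pd21 the ranges of Sall4 and Lin28a overlapped.

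**Figure D1:**
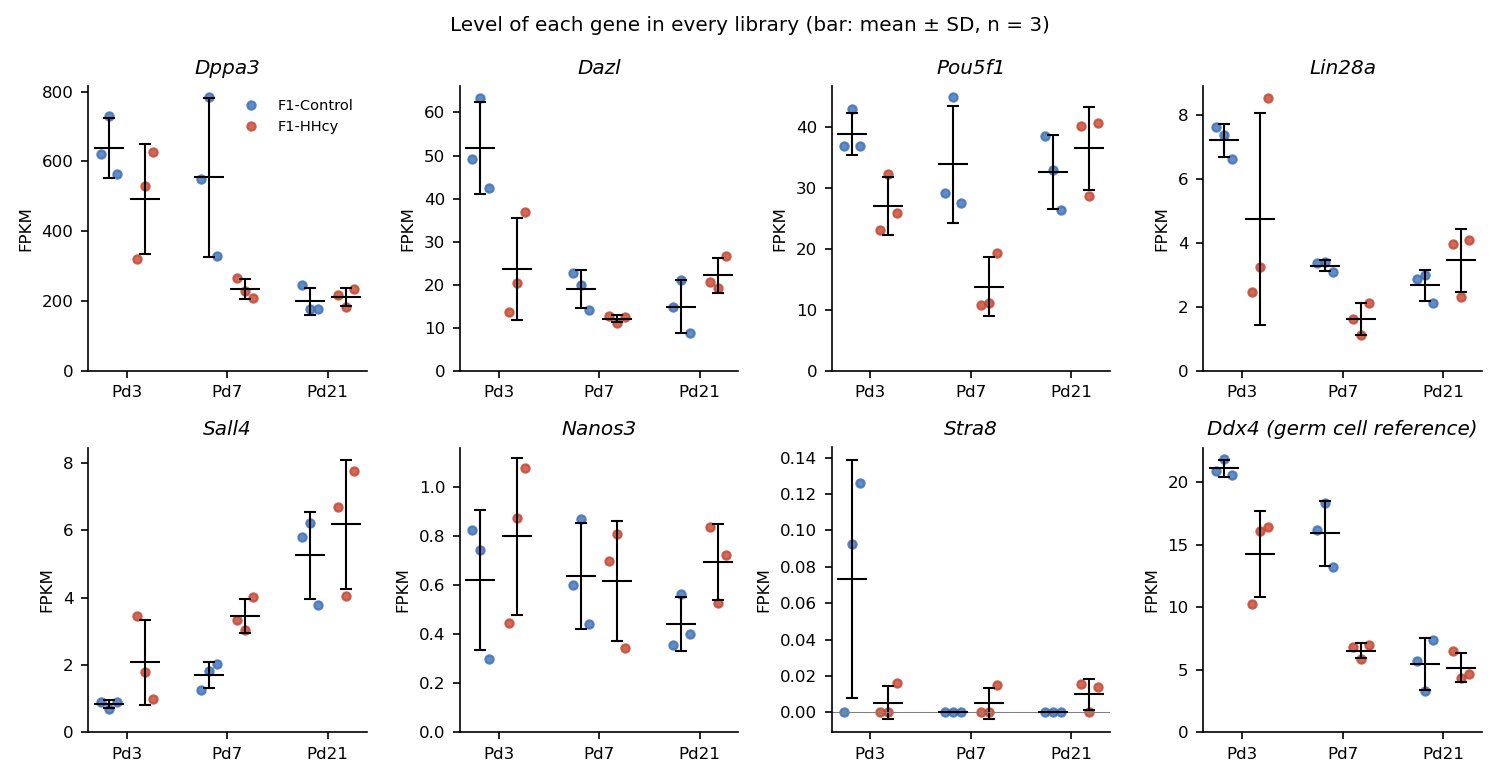
Level in FPKM (vertical axes, each from 0 or just below) of the 7 genes and of the germ cell gene Ddx4 in all 18 libraries (points), by postnatal day and maternal diet, with the mean and SD of 3 libraries in black. The F1-HHcy points at Pd7 lie below all F1-Control points for Dppa3, Dazl, Pou5f1, Lin28a and Ddx4 and above them for Sall4, and at Pd21 the diets overlap for all of these.

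Expression was compared between the diets at each day on log2(FPKM + 1) with limma, over genes that reached 1 FPKM in 3 or more of the 6 libraries. The criterion for a call, taken from the volcano plots of the study, was a log2 fold change beyond 0.58 in either direction together with p below 0.05 before adjustment. Adjusted p-values (Benjamini-Hochberg) cover all genes tested that day. Dppa3, Dazl, Pou5f1 and Lin28a passed the filter at every day and Sall4 at Pd7 and Pd21. Nanos3 and Stra8 passed it at no day, and Sall4 did not pass at Pd3. In whole ovaries, fewer germ cells and less RNA per germ cell cannot be told apart, so Ddx4 (the Vasa helicase present in germ cells of all these stages) is given beside the 7 genes.

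At Pd3 the germ cell regulator Dazl fell in the F1-HHcy ovary to 0.440 of its F1-Control level, and it was the only one of the 4 tested genes to pass the criterion. Dazl was at 49.1, 63.4 and 42.6 FPKM in the F1-Control libraries and at 13.7, 20.5 and 36.8 FPKM in the F1-HHcy libraries. The groups did not overlap, although the third F1-HHcy library came close to the lowest control. Dazl differed by -1.18 (SE 0.32) on the log2 scale, with adjusted p = 0.0926 in limma. Of all 13277 genes tested at Pd3, 4.74% were called lower and 9.74% in either direction, so 1 of 4 stands beside a background of that size.

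Pou5f1 fell short of the fold threshold at Pd3. It was at 36.8, 42.9 and 36.9 FPKM in F1-Control and at 23.0, 32.3 and 25.8 FPKM in F1-HHcy, without overlap. The difference was -0.52 (SE 0.14), with adjusted p = 0.0938 in limma. Dazl and Pou5f1 were the 2 of 4 tested genes whose groups did not overlap, as 27.9% of all tested genes did not. Without F1-HHcy replicate 2 the difference of Pou5f1 was -0.65 and passed the criterion.

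Dppa3 and Lin28a overlapped between the diets at Pd3. Dppa3 was at 622, 731 and 563 FPKM in F1-Control and at 319, 530 and 628 FPKM in F1-HHcy, a difference of -0.42 (SE 0.25, adjusted p = 0.361 in limma). Lin28a was at 7.61, 7.37 and 6.61 FPKM in F1-Control and at 2.46, 3.24 and 8.53 FPKM in F1-HHcy, a difference of -0.66 (SE 0.34, adjusted p = 0.303 in limma). For both genes the outcome depended on 1 library, F1-HHcy replicate 3, which was the highest F1-HHcy library for Dppa3, Dazl and Lin28a and the lowest for Sall4. Without it the difference was -1.095 for Lin28a and -0.62 for Dppa3, both passed the criterion, and 3 of the 4 genes were called. With that library kept, Lin28a also passed with all 18 libraries in 1 model (-0.66) and in limma-voom without a filter (-0.83).

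Sall4, a zinc finger transcription factor, pointed the other way at Pd3. It was at 0.914, 0.699 and 0.895 FPKM in F1-Control and at 3.45, 1.79 and 0.992 FPKM in F1-HHcy. All F1-HHcy libraries were above all controls, the third by a small margin. Because only 2 libraries reached 1 FPKM, the gene was left out of the test at this day. Without the filter it differed by 0.67 (SE 0.31) in limma and did not pass, and on the recovered fragments by 1.15 (SE 0.47) in limma-voom, which passed.

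At Pd7 all 5 tested genes were called, 4 lower and 1 higher in F1-HHcy, and the diets overlapped in none of them. Among all 13299 genes tested at Pd7, 7.35% were called lower, 9.06% were called higher and 39.0% had groups without overlap. Pou5f1 had the smallest p of the 5. It was at 29.1, 44.9 and 27.5 FPKM in F1-Control and at 10.9, 11.2 and 19.4 FPKM in F1-HHcy. The fitted F1-HHcy level was 0.421 of the control level, a difference of -1.25 (SE 0.25, adjusted p = 0.0132 in limma).

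Dppa3, the maternal methylation guard, was at 550, 785 and 330 FPKM in F1-Control and at 265, 229 and 208 FPKM in F1-HHcy at Pd7. The controls were widely spread, and the lowest of them was still above the highest F1-HHcy library. Dppa3 differed by -1.16 (SE 0.29, adjusted p = 0.0316 in limma). Lin28a, the let-7 antagonist, was at 3.37, 3.39 and 3.09 FPKM in F1-Control and at 1.63, 1.12 and 2.13 FPKM in F1-HHcy. The control values lay close together, and the difference was -0.72 (SE 0.17, adjusted p = 0.0290 in limma). Without F1-HHcy replicate 2, in which Lin28a was lowest, it was -0.577 and did not reach the fold threshold.

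Dazl was at 22.8, 20.1 and 14.1 FPKM in F1-Control and at 12.8, 11.2 and 12.5 FPKM in F1-HHcy at Pd7. The F1-HHcy libraries were within a narrow range just under the lowest control. The difference of Dazl, -0.580 (SE 0.18, adjusted p = 0.0638 in limma), lay at the fold threshold itself. Leaving out replicate 1 or 2 of F1-Control gave -0.441 and -0.530, leaving out replicate 2 of F1-HHcy gave -0.525, and none of the 3 values passed. With all 18 libraries in 1 model Dazl kept its difference and lost its call. Without F1-HHcy replicate 2, which affected both Dazl and Lin28a, 3 of the 5 genes were called.

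Sall4 was the only one of the 7 genes called higher at Pd7. It was at 1.26, 1.82 and 2.03 FPKM in F1-Control and at 3.34, 3.04 and 4.02 FPKM in F1-HHcy. Every F1-HHcy library was above every control, with a difference of 0.73 (SE 0.17, adjusted p = 0.0259 in limma). Sall4 and Lin28a, which are both counted among the core pluripotency regulators, thus differed in opposite directions in the same libraries.

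At Pd21 limma called none of the 5 tested genes, and none had an unadjusted p under 0.05. Of 13350 genes tested, 5.14% were called in either direction and 10.5% had groups without overlap. Dppa3 was at 245, 176 and 177 FPKM in F1-Control and at 217, 184 and 234 FPKM in F1-HHcy, and Pou5f1 at 38.6, 32.9 and 26.3 FPKM and at 40.1, 28.6 and 40.7 FPKM. Both genes overlapped widely between the diets, with differences of 0.09 (SE 0.19) for Dppa3 and 0.16 (SE 0.19) for Pou5f1 in limma.

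Among the 5 tested genes Dazl differed most at Pd21, by 0.60 (SE 0.28, adjusted p = 0.821 in limma). It was at 14.7, 21.2 and 8.90 FPKM in F1-Control and at 20.7, 19.2 and 26.8 FPKM in F1-HHcy. The difference of Dazl passed the criterion without F1-Control replicate 2 (0.88), after median-ratio scaling (0.64) and in limma-voom without a filter (0.65). Lin28a was at 2.88, 3.00 and 2.12 FPKM in F1-Control and at 3.97, 2.31 and 4.09 FPKM in F1-HHcy. Sall4 was at 5.79, 6.21 and 3.79 FPKM in F1-Control and at 6.70, 4.05 and 7.77 FPKM in F1-HHcy. Both overlapped between the diets, with differences of 0.26 (SE 0.22) for Lin28a and 0.18 (SE 0.25) for Sall4.

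**Figure D2:**
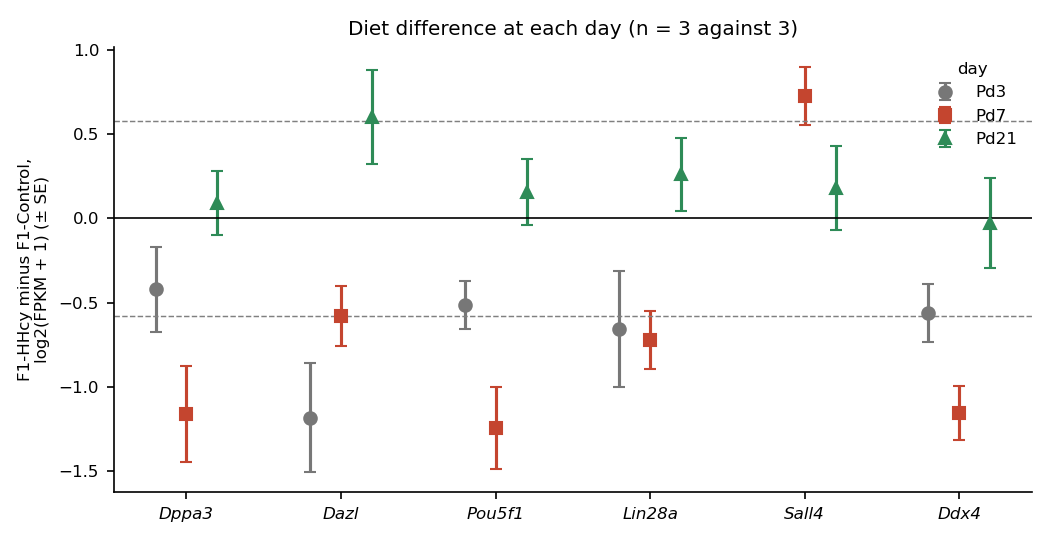
Difference between the diets (vertical axis, F1-HHcy minus F1-Control on log2(FPKM + 1), with its standard error from limma) for 5 of the 7 genes and Ddx4 at each day (marker shape and colour), with dashed lines at 0.58 in either direction and no Pd3 point for Sall4, which was not tested then. At Pd7 the points of Dppa3, Pou5f1 and Ddx4 lie between -1.25 and -1.16 and that of Sall4 at 0.73, and at Pd21 the 5 genes lie between 0.09 and 0.60.

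Nanos3 and Stra8 were too low for the filter. Nanos3 ranged from 0.297 to 1.08 FPKM over the 18 libraries (18 to 64 fragments), and its groups overlapped at all 3 days. Without the filter it differed by 0.15 (SE 0.20) at Pd3, -0.02 (SE 0.15) at Pd7 and 0.23 (SE 0.11) at Pd21 in limma. None of these values passed the criterion. Stra8, the meiotic entry gene, had 0, 6 and 8 fragments in the F1-Control libraries at Pd3, and no other library had more than 1. No fragment of Stra8 was counted in 12 of the 18 libraries, a count that at these depths allows a level of up to 0.0426 to 0.0495 FPKM (3 fragments, counting error only). The level of Stra8 in the other groups was therefore not distinguishable from 0 at this depth.

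Over the first postnatal week the levels of Dazl and Lin28a fell in the F1-Control ovary, while Dppa3 and Pou5f1 overlapped between the ages. Dazl was 1.40 (SE 0.20) lower at Pd7 than at Pd3 on the log2 scale, with adjusted p = 0.00333 in limma. Lin28a fell by 0.94 (SE 0.13), with adjusted p = 0.00349 in limma. These 2 of 5 tested genes were called lower, against 7.77% of all genes tested. Sall4 differed by 0.55 (SE 0.16, adjusted p = 0.0517 in limma), without overlap but below the fold threshold, and on the recovered fragments it differed by 1.01 in limma-voom and passed, as it also did with 0.1 FPKM added in place of 1 (0.93), after median-ratio scaling (0.59) and without F1-Control Pd3 replicate 1 (0.58). Dppa3 differed by -0.28 (SE 0.30) and Pou5f1 by -0.22 (SE 0.18), and neither passed.

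In the F1-HHcy ovary 4 of 5 tested genes were called lower at Pd7 than at Pd3, against 5.36% of all genes. Dppa3 differed by -1.02 (SE 0.25, adjusted p = 0.1003), Pou5f1 by -0.95 (SE 0.23, adjusted p = 0.1001), Lin28a by -1.001 (SE 0.37, adjusted p = 0.171) and Dazl by -0.80 (SE 0.31, adjusted p = 0.182) in limma. Sall4 differed by 0.61 (SE 0.28) and did not pass, except without F1-HHcy Pd3 replicate 1 (0.91), with all 18 libraries in 1 model (0.61) and in limma-voom (0.90). Libraries at Pd3 were widely spread in this group, and Dazl and Lin28a lost their calls without F1-HHcy Pd3 replicate 3 (-0.44 and -0.56), Pd7 replicate 1 (-0.83 and -1.01) or Pd7 replicate 2 (-0.74 and -0.86), and without the filter on low values. Dazl also lost its call without Pd3 replicate 2 (-0.84) or Pd7 replicate 3 (-0.82), so that it was kept only without Pd3 replicate 1. No gene of the whole table had an adjusted p under 0.05 in this comparison. The F1-Control and F1-HHcy courses share no library, and the difference between them is the interaction that follows.

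The diet difference itself was then compared between the days, and that of Pou5f1 was called in both steps. From Pd3 to Pd7 its diet difference became more negative by 0.73 (estimate -0.73, SE 0.32, adjusted p = 0.336 in limma over 14607 genes and all 18 libraries), the only one of 5 tested genes called, where 5.28% of all genes were called lower. The call of Pou5f1 was lost on leaving out any 1 of 6 libraries (F1-Control Pd3 replicates 1 and 3, F1-HHcy Pd3 replicate 2, F1-Control Pd7 replicate 2, F1-HHcy Pd7 replicates 1 and 2), with estimates between -0.70 and -0.51. Dppa3 was called without F1-HHcy Pd3 replicate 1 (-1.02) or F1-Control Pd7 replicate 3 (-1.07), and Dazl, in the opposite direction, without F1-HHcy Pd3 replicate 3 (0.97). From Pd7 to Pd21 the diet difference rose by 1.40 for Pou5f1 (SE 0.32, adjusted p = 0.0175), by 1.25 for Dppa3 (SE 0.39, adjusted p = 0.0855), by 1.18 for Dazl (SE 0.43, adjusted p = 0.146) and by 0.98 for Lin28a (SE 0.39, adjusted p = 0.184) in limma. These 4 of 5 genes were called, against 5.55% of all genes called higher. Lin28a lost its call without F1-HHcy Pd7 replicate 2 (0.84), F1-Control Pd21 replicate 3 (0.87), F1-HHcy Pd21 replicate 1 (0.89) or F1-HHcy Pd21 replicate 3 (0.88). The estimate for Sall4 was -0.55 (SE 0.36) and did not pass. Because the Pd21 libraries were a batch of their own, age and batch cannot be told apart in this step.

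Ddx4, the germ cell helicase outside the 7 genes, moved with most of them. It was at 20.9, 21.9 and 20.6 FPKM in F1-Control and at 10.3, 16.1 and 16.4 FPKM in F1-HHcy at Pd3, a difference of -0.56 (SE 0.18, adjusted p = 0.122 in limma) that was under the fold threshold. At Pd7 Ddx4 was at 16.2, 18.4 and 13.2 FPKM in F1-Control and at 6.84, 5.85 and 6.95 FPKM in F1-HHcy, and it was called lower by 1.16 (SE 0.16, adjusted p = 0.00382 in limma). At Pd21 it was at 5.75, 3.27 and 7.37 FPKM and at 6.54, 4.31 and 4.70 FPKM, and the diets overlapped.

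Each gene was therefore also expressed as the log2 ratio to Ddx4 in the same library and compared between the diets with a 2-sided exact permutation test over 21 combinations of gene and day, which with 3 against 3 libraries cannot give a p under 0.1. Between the diets at Pd7 the ratios of Dppa3 and Pou5f1 differed least. At Pd7 the ratio of Dppa3 was 4.96 ± 0.21 (SD, n = 3) in F1-HHcy and 4.96 ± 0.40 in F1-Control (exact p = 1), and that of Pou5f1 was 0.930 ± 0.387 and 1.02 ± 0.22 (exact p = 0.8). The diets overlapped in the ratios of both genes at all 3 days.

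For Dazl, Lin28a and Sall4 the ratios at Pd7, with 1 FPKM added to both genes, were higher in all F1-HHcy libraries than in any control. Because Ddx4 itself was lower, 94.2% of the 13298 other genes tested that day were likewise higher relative to Ddx4 without overlap (59.1% at Pd3), so the separation is no feature of these 3 genes. The ratio of Dazl was 0.80 ± 0.03 in F1-HHcy and 0.23 ± 0.21 in F1-Control, that of Lin28a -1.54 ± 0.18 and -1.97 ± 0.17, and that of Sall4 -0.760 ± 0.095 and -2.64 ± 0.37. Each of the 3 had the smallest exact permutation p possible, 0.1 (adjusted p = 0.263), in groups of n = 3 without overlap. For Lin28a this rested on the added 1 FPKM: with 0.1 FPKM added its difference went from 0.43 to 0.25 and the diets overlapped, since F1-HHcy replicate 2 fell below F1-Control replicates 1 and 3. That of Sall4 went from 1.88 to 2.26 and stayed without overlap. At Pd3 the ratio of Sall4 was again higher without overlap (-2.36 ± 0.92 against -3.59 ± 0.14, exact p = 0.1), while that of Dazl was lower with overlap (0.61 ± 0.44 against 1.23 ± 0.24, exact p = 0.2). Set against the mean of 6 germ cell and oocyte markers in place of Ddx4, the Pd3 differences of Dppa3 and Pou5f1 moved from 0.14 to -0.53 and from 0.05 to -0.62, and that of Dazl from -0.62 to -1.29. Of those 6 markers 2 were called higher and 1 lower at Pd3. The ratio of Stra8 largely follows the level of Ddx4, because the gene is small against the added 1 FPKM. Nanos3 is of a size with that 1 FPKM. The Nanos3 ratio differed by 0.71 at Pd3 and 1.13 at Pd7, both without overlap, and by 0.26 at Pd21 with overlap. Without the filter Nanos3 itself differed by 0.15, -0.02 and 0.23 on those days. With 0.1 FPKM added its ratio stayed without overlap at Pd3 and Pd7.

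**Figure D3:**
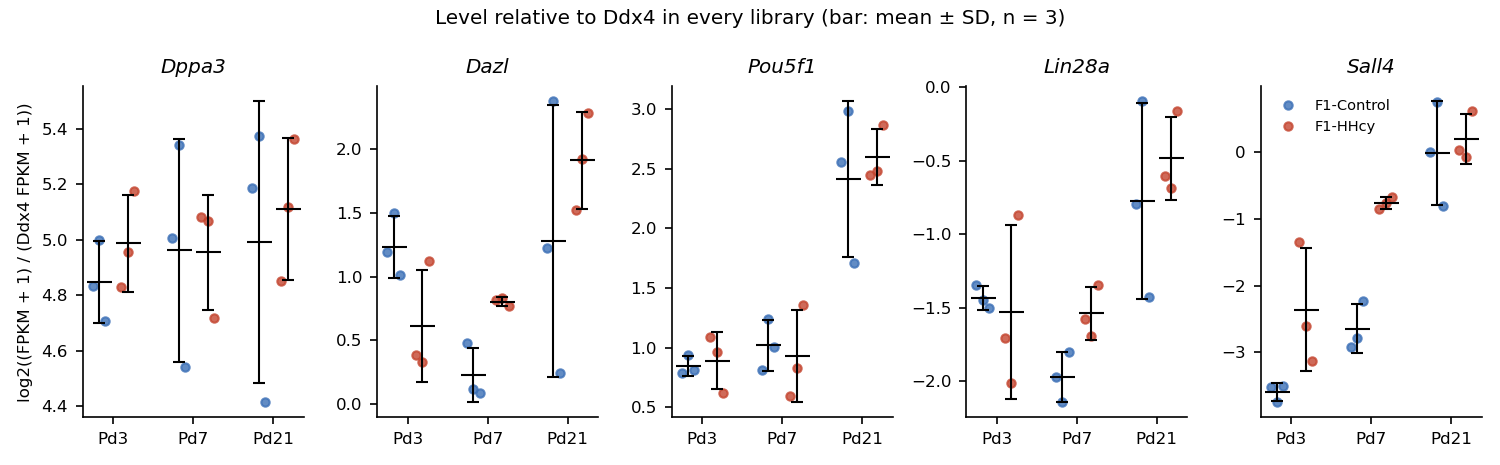
Log2 ratio of each gene to Ddx4 (vertical axes, 1 FPKM added to both) in every library (points) by day and diet, with the mean and SD of 3 libraries in black. At Pd7 the F1-HHcy points of Dazl, Lin28a and Sall4 lie above all F1-Control points, whereas those of Dppa3 and Pou5f1 overlap with the controls. With 0.1 FPKM added in place of 1, Lin28a overlaps too.

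The genes whose course over the 18 libraries was most like that of each expressed gene were listed by the root mean square difference of their centred log2(FPKM + 1) profiles among 14607 genes. Closest to Dppa3 were Gtsf1 (0.135), Gm13269 (0.185) and Rpl39l (0.209), where the median over all genes was 0.792. Closest to Pou5f1 were Cd164l2 (0.167), Eif1b (0.198) and Eid2 (0.232), against a median of 0.628. Gtsf1, a cofactor of the piRNA pathway, had means of 149 FPKM in F1-Control and 65.9 FPKM in F1-HHcy at Pd7, and Eif1b, a translation initiation factor, of 108 and 49.4 FPKM. Dazl was most like Lhx8 (0.251), a transcription factor of primordial oocytes, followed by Gm38425 (0.277) and by Lin28a (0.299), itself one of the 7. Lin28a was most like Nanos1 (0.174), Phactr3 (0.177) and Tph2 (0.190), against a median of 0.647, and Sall4 was most like Nat14 (0.147), Cpne9 (0.166) and Gm16551 (0.169), against a median of 0.799. These differences describe the libraries, which share ages, diets and batches, and carry no test.

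The lists that follow were chosen with results of these data known, and none holds one of the 7 genes. Other genes of the pluripotency and germ cell specification network were near the detection limit or split in direction. Of its 24 listed genes 9 passed the filter at Pd3 and 11 at Pd7. Nanog and Sox2, the usual partners of Pou5f1 in pluripotent cells, did not exceed 0.235 and 0.236 FPKM in any of the 18 libraries (both named after their values were seen). At Pd3 1 gene was called higher and 2 lower, with a median difference of 0.07 against -0.03 over all genes tested. Dppa5a, an RNA-binding protein of pluripotent cells and oocytes, rose from 47.8 to 144 FPKM (1.56, adjusted p = 0.0142 in limma), and Dppa4 fell by 1.23 (adjusted p = 0.0727). At Pd7 3 genes were called higher and 3 lower, among them Dppa2 (1.27, adjusted p = 0.00939) and Esrrb (0.98, adjusted p = 0.0380), both higher in limma, whereas Dppa5a was lower by 0.68 (adjusted p = 0.0722). Klf2, the second most abundant of the list, passed at neither day.

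Genes of meiotic entry and prophase belong to the step at which Stra8 is switched on and to the stages after it. Those that were called at Pd3 and Pd7 were lower in F1-HHcy. At Pd3 6 of 16 tested genes were called lower (4.74% of all genes) and none higher, with a median difference of -0.70. Rec8, a meiotic cohesin, fell by 1.78 (adjusted p = 0.0392 in limma) and Meiosin, the partner of Stra8, by 1.2998 (adjusted p = 0.0490). At Pd7 7 of 13 were called lower (7.35% of all genes) and none higher, with a median of -0.72 against -0.0015 over all genes. Smc1b (-2.21, adjusted p = 0.00113) and Sycp3 (-2.52, adjusted p = 0.00225) had the smallest p in limma. Sycp3, the lateral element protein of the synaptonemal complex, went from 86.4 to 13.1 FPKM at that day. At Pd21 none of 8 tested genes was called in limma, and none had p below 0.05 before adjustment.

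RNA-binding proteins of the germ line, the class of Dazl, were called lower more often than higher. This list includes Ddx4, which is also among the germ cell markers below, as is Figla of the oocyte programme. The same call can therefore be counted in more than 1 list. At Pd3 4 of 13 were called lower and 1 higher (median -0.57), and at Pd7 7 of 13 were called lower and 1 higher (median -0.60). Piwil2 (-1.76, adjusted p = 0.00268) and Mael (-2.11, adjusted p = 0.00312), both of the piRNA pathway, led at Pd7 in limma, and the abundant Ybx2 and Gtsf1 fell at both days, Ybx2 by 1.05 and 0.95 and Gtsf1 by 0.63 and 1.09. The gene called higher at both days was Pabpc1l, an oocyte poly(A)-binding protein (1.97 at Pd3, 0.78 at Pd7).

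In the oocyte programme the direction of most calls differed between Pd3 and Pd7. At Pd3 10 of 19 tested oocyte genes were called higher and 4 lower in F1-HHcy, with a median difference of 0.82, and Zar1 (2.62, adjusted p = 0.0175) and Khdc3 (1.03, adjusted p = 0.0211), maternal factors of growing oocytes, had the smallest p in limma. At Pd7 11 of 19 were called lower and 2 higher (median -0.90), against 7.35% and 9.06% of all genes. Sohlh1 (-2.66, adjusted p = 0.00121) and Sohlh2 (-1.94, adjusted p = 0.00138), transcription factors of primordial oocytes, had the smallest p, and the abundant Padi6 (-1.34) and Zp2 (-1.17) were lower as well. Zp2 had been called higher at Pd3 (1.14). At Pd21 none of 18 was called in limma or had p below 0.05 before adjustment.

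The lists tied to single members stand beside a background of 9.74% of all genes called in either direction at Pd3, and of 7.35% called lower and 9.06% higher at Pd7. Among the DNA methylation partners of Dppa3, 1 of 8 was called higher and 1 lower at Pd3, and 2 of 9 higher and 1 lower at Pd7. Kdm1b, the oocyte histone demethylase, differed by -0.62 at Pd3 and -0.999 at Pd7 and was called lower at both days (Pd7 adjusted p = 0.00824), Dnmt3l rose by 1.15 at Pd7 (adjusted p = 0.0347 in limma), and Dnmt1 rose by 1.01 at Pd3 (adjusted p = 0.107). Uhrf1, the protein that Dppa3 binds, differed by -0.05 at Pd3 and -0.53 at Pd7 and passed at neither day. In the Lin28 and let-7 pathway none of 10 genes was called at Pd3, where 3 had p below 0.05 before adjustment in limma, and 1 of 9 at Pd7, Tut4 (0.86, adjusted p = 0.0465), a uridylyl transferase that acts with Lin28a. Drosha, the microRNA processing nuclease, differed by -0.56 at Pd3 and -0.47 at Pd7 and stayed under the fold threshold.

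In the retinoic acid pathway upstream of Stra8, 2 of 11 genes were called higher and 2 lower at Pd3, and 1 higher and 4 lower at Pd7. Of the retinal dehydrogenases, which make retinoic acid, Aldh1a1 was lower by 0.86 at Pd3 (adjusted p = 0.0279 in limma) and Aldh1a2 by 1.40 at Pd7 (adjusted p = 0.00403). At Pd7 the mean of Aldh1a1 was instead higher in F1-HHcy (131 FPKM in F1-Control, 172 FPKM in F1-HHcy). That of Aldh1a3 was higher in F1-HHcy at Pd3 (2.41 against 2.88 FPKM) and at Pd7 (2.39 against 3.44 FPKM). The retinoic acid binding protein Crabp1 fell by 2.30 at Pd7 (adjusted p = 0.00695 in limma). Stra6, the retinol receptor, was called higher at Pd3 (0.71) and lower at Pd7 (-0.70). At Pd21 limma called none of the 10 tested genes of this list, of which 1 had p below 0.05 before adjustment, and none of the 9 tested genes in each of the lists for Dppa3 and Lin28a, of which 0 did.

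**Figure D4:**
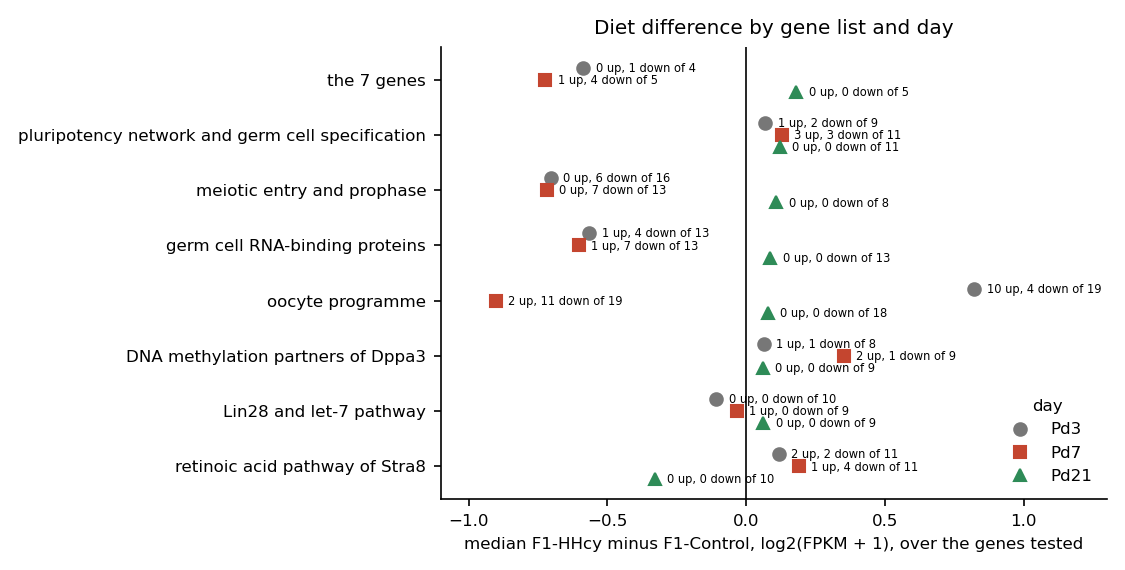
Median difference between the diets (horizontal axis, F1-HHcy minus F1-Control on log2(FPKM + 1)) over the tested genes of each list at each day (marker shape and colour), with the number of genes called higher (up) and lower (down) of those tested beside each marker. Meiotic genes and germ cell RNA-binding proteins lie between -0.72 and -0.57 at Pd3 and Pd7, the oocyte programme lies at 0.82 at Pd3 and at -0.90 at Pd7, and all lists lie within 0.33 of 0 at Pd21.

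Markers of other cells also differed between the diets, and their part in the results above was not tested. The 6 markers of germ cells and oocytes were present in every library, so the tissue held germ cells at all 3 ages. At Pd3 2 of the 6 were called higher and 1 lower, and their sum was higher in F1-HHcy (397 to 500 FPKM in F1-Control, 632 to 801 FPKM in F1-HHcy). At Pd7 5 of the 6 were called lower, and the 6 summed to 640 to 1103 FPKM in F1-Control and 411 to 742 FPKM in F1-HHcy. The 4 erythroid markers were called lower in F1-HHcy at Pd3, summing to 3150 to 9060 FPKM in F1-Control and 686 to 953 FPKM in F1-HHcy, and 3 of 3 tested at Pd7. All 4 stroma markers were called higher at Pd3 (315 to 438 against 591 to 754 FPKM), and all 4 theca and steroidogenic markers at Pd7 (9.30 to 28.5 against 126 to 260 FPKM). At Pd21 the 4 markers of multiciliated and oviduct epithelium were called lower, at 63.1 to 431 FPKM in F1-Control and 1.63 to 3.01 FPKM in F1-HHcy. Of the other lists, granulosa cells had 1 marker called higher at Pd3 and 2 at Pd7, endothelium 2 higher at Pd3, leukocytes 1 lower at Pd7, stroma 1 lower at Pd7 and at Pd21, multiciliated and oviduct epithelium 1 higher and 1 lower at Pd7, and surface epithelium 1, 2 and 2 lower at Pd3, Pd7 and Pd21. After median-ratio scaling of the libraries the median difference of all genes moved by less than 0.1 in every comparison.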

How the data were processed

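The deposited values, 1 per gene symbol and library, carry no unit in the files and were read as FPKM, because 1 length per gene and 1 total per library turned them into whole fragments (tolerance 0.01) for 27291 of 27294 genes above 0 in at least 3 libraries. These totals ran from 33630641 to 39399281 fragments. The submitters' processing notes name FastQC 0.11.9, Trimmomatic 0.39, STAR 2.7.9a, featureCounts 2.0.1, DESeq2 1.36.0 and the build GRCm38 (mm10), without order.

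Here log2(FPKM + 1) was fitted with limma 3.58.1 in R 4.3.3 (variance trend, per comparison), and the differences between days on all 18 libraries. The fit was tested on simulated data. Fold changes on this scale understate those of low genes. All 7 genes, Ddx4, the 2 most abundant and the 2 genes of smallest p per list and day, and the 3 nearest profiles of genes reaching a group mean of 5 FPKM were eligible to be named. The genes, lists and tests were chosen with earlier results of these data known. Alternatives tried were another pseudocount, no filter, 1 model of all libraries, a replicate block, median-ratio scaling, limma-voom, the adjusted p as threshold and each library left out. Promoters are from RefSeq (GRCm38.p6).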

Additional observations from a re-analysis of the deposited data

Results flagged for a closer look

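The diet difference (F1-HHcy minus F1-Control on log2(FPKM + 1)) differed between days by limma's interaction test at an unadjusted p under 0.05 in 5 cases. For Pou5f1 it changed by -0.73 from Pd3 to Pd7 (adjusted p = 0.336) and by 1.40 from Pd7 to Pd21 (adjusted p = 0.0175). From Pd7 to Pd21 it changed by 1.18 for Dazl (adjusted p = 0.146), by 1.25 for Dppa3 (adjusted p = 0.0855) and by 0.98 for Lin28a (adjusted p = 0.184). Only the second value of Pou5f1 held with the adjusted p, and in the steps to Pd21 age and batch cannot be told apart. For this list, groups of 3 libraries were not searched for single outlying libraries, and leaving out each library in turn is covered below.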

How the results depend on the processing

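Of 523 recomputed log2 fold changes 468 kept their side of the criterion, 35 lost it, 20 gained it and none that was called changed sign. At Pd3, where 1 gene was called, 3 were called with all 18 libraries in 1 model and in limma-voom without a filter (added after seeing the data), 0 with the adjusted p as threshold, and 1 to 3 with a library left out. At Pd7 the 5 calls became 3 to 5 with a library left out. At Pd21 the count of 0 became 1 (Dazl) after median-ratio scaling and in limma-voom without a filter, and 0 to 1 with a library left out. Pd7 against Pd3 gave 2 in F1-Control, and 4 in limma-voom without a filter, which added Sall4 and, from 0, 6 and 8 fragments at Pd3 against 0 in each library at Pd7, Stra8. In F1-HHcy it gave 4, against 2 without the filter on low values, 0 with the adjusted p, and 2 to 5 with a library left out. For the change of the diet difference from Pd3 to Pd7 the 1 call became 0 with the adjusted p and 0 to 2 with a library left out. For that from Pd7 to Pd21 the 4 calls became 1 with the adjusted p and 3 to 4 with a library left out. The cause of these changes was not tested. Libraries with the same number in the 2 diets did not deviate together (correlations from -0.338 to 0.0872), and with the replicate number as a block the counts were again 1, 5, 0, 2, 4, 1 and 4. The count of 8 ratios to Ddx4 without overlap, of 21, lay between 6 and 11 over its alternatives. Of these 8, 4 belong to Nanos3 and Stra8 at Pd3 and Pd7, where Ddx4 itself was lower in F1-HHcy. Nanos3 and Stra8, with at most 64 and 8 fragments in a library, were below the filter throughout, so depth limits what can be said of both.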
